A study of Mus musculus with 4 samples.

Results

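Proliferating T cells were studied in mouse single-cell transcriptomes of pancreatic leukocytes and of T cells from the pancreatic lymph node. A cell barcode counted as a T cell when it held at least 1 UMI (unique molecular identifier, 1 captured transcript) of Cd3e, Cd3d or Cd3g, none of Cd79a and at most 2 of Lyz2. It counted as cycling when it also held at least 4 UMIs summed over 6 proliferation genes, Mki67, Top2a, Ube2c, Birc5, Rrm2 and Pclaf. Only barcodes with 500 or more detected genes, and with no more than 10% of UMIs from mitochondrial genes, were used. The rule found 127 cycling T cells among 14873 T cells and 19357 barcodes kept in all. Pancreas control gave 35 of them, pancreas CD4-Cre 51, lymph node control 22 and lymph node CD4-Cre 19. The cells were selected on the UMI counts of the 3 Cd3 genes, Cd79a, Lyz2 and the 6 proliferation genes, so the levels of these genes below are a description and support nothing.

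All mice were pre-diabetic females with both Ocab alleles floxed (Ocabfl/fl). Ocab is the older name of Pou2af1, which encodes a coactivator of the Oct1 and Oct2 transcription factors. The strain is not given in the labels used here. Control animals are labelled with the floxed alleles alone, and the Ocabfl/fl.CD4-Cre animals carried Cre recombinase driven by CD4 regulatory sequence, which acts in CD4 and CD8 T cells alike because both pass through a stage that expresses CD4. The pancreas libraries held CD45+ cells sorted by flow cytometry from 4 pooled 12-week-old mice each. The lymph node libraries held T cells taken with CD3 magnetic separation from 5 pooled 8-week-old mice each. There was 1 library per group, so no test between genotypes was possible and every interval here is a 95% interval for counting error only. Genotypes were compared within a tissue, since tissue, age and selection cannot be told apart.

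A resting T cell seldom divides. After its receptor meets antigen with costimulation it grows, raises glycolysis and enters the cell cycle. In S phase it copies its DNA with the MCM helicase, PCNA and enzymes that make nucleotides, and in G2 and mitosis it builds the spindle and separates its chromosomes with cyclin B, the kinesins and the anaphase-promoting complex. S phase genes are classic targets of E2F factors. Many G2/M genes instead carry a cell cycle homology region (CHR) that the DREAM and B-MYB complexes bind, along with CCAAT boxes. Autoreactive CD8 and CD4 T cells that divide in the islets and in the draining node are part of the disease of the diabetes-prone mouse, and regulatory T cells marked by Foxp3 divide there as well.

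The 2 kinds of promoter can be read in the genes used here. RefSeq promoters (GRCm38.p6, 250 bases before to 50 after the start of a gene) were matched for 33 of 45 genes of an S phase list and 47 of 54 of a G2/M list. The CHR letters TTTGAA, searched on both strands, were in 68.1% of the G2/M promoters, 15.2% of the S promoters and 18.1% of all 27025 promoters. An E2F core, GCGGGAA on either strand, was in 45.5% of the S promoters, none of the 47 G2/M promoters and 4.66% of all. CCAAT, on either strand and counted whether or not it overlapped another motif, was in 76.6% of the G2/M promoters, 69.7% of the S promoters and 37.9% of all. A match describes letters in this window and is not a bound site. The sequences below show 2 promoters with a CHR and 2 with an E2F core, each from 140 bases before to 10 after the start, 5′ to 3′ on the strand of the gene. Capitals mark CHR, E2F core and CCAAT matches. Ube2c lies at chr2:164769789-164769938 (plus strand), Top2a at chr11:99024180-99024329 (minus strand), Pclaf at chr9:65890183-65890332 (plus strand) and Hells, the gene of a chromatin remodeller, at chr19:38930850-38930999 (plus strand).
Ube2c: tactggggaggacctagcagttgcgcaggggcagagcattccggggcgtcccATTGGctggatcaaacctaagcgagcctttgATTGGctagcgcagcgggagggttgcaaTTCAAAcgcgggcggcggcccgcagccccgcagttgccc
Top2a: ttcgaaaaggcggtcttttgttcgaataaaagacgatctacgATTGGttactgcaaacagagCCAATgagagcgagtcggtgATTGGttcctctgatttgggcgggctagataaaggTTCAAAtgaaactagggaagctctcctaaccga
Pclaf: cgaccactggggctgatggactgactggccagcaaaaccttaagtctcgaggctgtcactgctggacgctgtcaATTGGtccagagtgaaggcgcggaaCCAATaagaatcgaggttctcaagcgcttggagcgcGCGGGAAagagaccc
Hells: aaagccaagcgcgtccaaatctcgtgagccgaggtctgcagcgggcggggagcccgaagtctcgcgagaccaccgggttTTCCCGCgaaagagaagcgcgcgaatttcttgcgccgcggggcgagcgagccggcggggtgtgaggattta
Ube2c, which encodes the ubiquitin-conjugating enzyme of the anaphase-promoting complex, and Top2a, the topoisomerase that untangles sister chromatids, each showed 1 CHR in the printed stretch, with 2 and 3 CCAAT matches. Pclaf, which encodes a PCNA-binding protein, showed an E2F core that runs across its start and 2 CCAAT matches. The Hells stretch held an E2F core and no CCAAT. Not every rule gene carried these letters in the full window. Mki67 had 2 CHR and 3 CCAAT matches, whereas Birc5 had 0 of all 3 motifs. Rrm2 had 1 CCAAT, 0 E2F cores and 0 CHR.

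Few T cells cycled in any library, and the lymph node CD4-Cre library had the lowest share. In the pancreas, 35 of 2353 control T cells (1.49%, interval 1.04 to 2.06) and 51 of 4186 CD4-Cre T cells (1.22%, 0.908 to 1.60) were cycling. The difference, CD4-Cre minus control, was -0.269 percentage points (-0.913 to 0.294), so it was not detectable at this number of cells. In the lymph node, 22 of 2777 control T cells (0.792%, 0.497 to 1.20) and 19 of 5557 CD4-Cre T cells (0.342%, 0.206 to 0.533) were cycling. That difference was -0.450 points (-0.873 to -0.121), a control share 2.32-fold that of CD4-Cre. It shrank to -0.202 points (-0.571 to 0.080) when every barcode was thinned to 2000 UMIs and 2 UMIs of the 6 genes were asked for. With at least 8 UMIs asked for, it was -0.252 points (-0.619 to 0.026). Without the 2% of barcodes with the most UMIs it was -0.147 points (-0.411 to 0.0189), on 6 and 4 cells. These 3 intervals include 0. Pancreatic B cells, at 2 or more Cd79a UMIs, reached the same 4 UMIs in 13 of 899 control barcodes (1.45%) and 19 of 1320 CD4-Cre barcodes (1.44%).

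**Figure D1:**
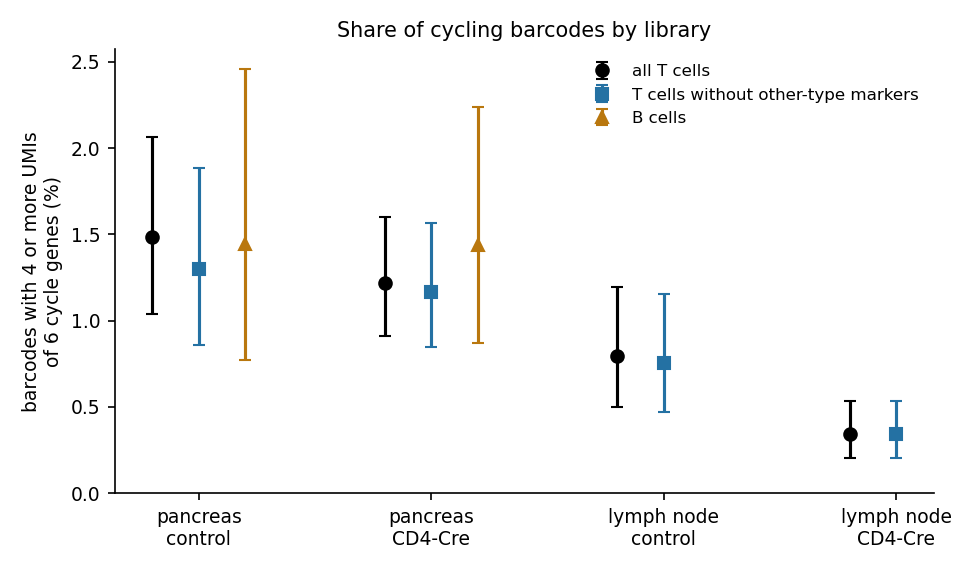
Share of barcodes with at least 4 UMIs of the 6 cycle genes (vertical axis, percent) in the 4 libraries, for all T cells (circles), T cells without markers of other cell types (squares) and pancreatic B cells (triangles); bars are exact 95% binomial intervals for counting error. The pancreas intervals overlap, and lymph node CD4-Cre is lowest at 0.342%.

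Cycling T cells held far more RNA than the others. Their median was 13759 UMIs in the control and 15161 in the CD4-Cre library of the pancreas, and 16963.5 and 18532 in those of the lymph node. The medians of the other T cells were 3438.5, 3559, 4672 and 4496 UMIs, so the cycling cells were 3.63 to 4.26 times deeper. A rule in raw UMIs is met more easily by a deep barcode, and how far depth chose the cells was not tested beyond the thinned rule above. Near the threshold, 95 T cells had 2 to 3 UMIs of the 6 genes and 26 had 4 to 8, while 101 had more. The first band had a median of 6 S and 13 G2/M list UMIs, the second 15 and 26.5, and the third 98 and 130.

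Each rule gene was found in most but not all cycling cells. Mki67, the gene of the proliferation antigen Ki-67, had 264 UMIs in 34 of 35 pancreas control cells and 402 in 43 of 51 pancreas CD4-Cre cells. In the lymph node it had 143 UMIs in 16 of 22 control cells and 40 in 10 of 19 CD4-Cre cells. Ube2c had 113 UMIs in 15 of 22 lymph node control cells and 19 UMIs in 10 of 19 CD4-Cre cells. Birc5, which encodes the mitotic protein survivin, had 197 UMIs in lymph node control and 77 in CD4-Cre. Pclaf and Rrm2, the latter a subunit of ribonucleotide reductase, are S phase genes and stood closer between those libraries, at 256 and 209 UMIs for Pclaf and at 214 and 145 for Rrm2. The sum over the 6 genes had medians of 37 and 45 UMIs per cell in the pancreas libraries and of 19.5 and 15 in the lymph node, and reached 300 in 1 lymph node control cell.

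The cycling barcodes carried T cell genes, with exceptions. All 13 genes of a T cell list were detected in the cycling cells of each library, and their summed level was 6770 and 7186 CPM (UMIs per 1000000 UMIs of the group) in pancreas control and CD4-Cre and 6660 and 6439 CPM in the lymph node. Other T cells held 7408 to 8031 CPM. No Trac or Trbc UMI was found in 3, 8, 1 and 1 cycling barcodes in the same order. Natural killer cell marker Ncr1 was detected in 5 pancreas control and 6 pancreas CD4-Cre barcodes, with 6 to 19 and 5 to 23 UMIs, and in none of the lymph node. Its whole list of 6 genes stood at 428 and 399 CPM in the cycling pancreas cells, below the 733 and 657 CPM of the other pancreas T cells, and at 0 and 6.13 CPM in the cycling lymph node cells. At least 20 UMIs each of Cst3 and H2-Aa, genes of antigen-presenting cells, occurred in 3 pancreas control barcodes (284 to 866 Cst3 UMIs), 1 pancreas CD4-Cre barcode (142) and 1 lymph node control barcode (42). One pancreas CD4-Cre barcode held 1272 UMIs of the haemoglobin gene Hbb-bs with 1 Cd3 UMI. A list of 10 myeloid genes summed to 3145 CPM in pancreas control and 429 in pancreas CD4-Cre, with 4 and 3 of its genes at 0, Csf1r among them in each. Other pancreas T cells held 771 and 518 CPM of it. The part of such barcodes in the results was not tested beyond leaving them out. The B cell gene Cd79a was at 0 by the rule. Of 4 genes of immature thymocytes, Rag1, Rag2 and Ptcra were at 0 in the cycling cells of all 4 libraries, and Dntt had 1 UMI in lymph node CD4-Cre (3.06 CPM, against 1.35 in other T cells). Without the barcodes that held such markers, 27, 44, 21 and 19 cycling cells remained. Cycling shares were then 1.30% and 1.17% in the pancreas and 0.757% and 0.342% in the lymph node. None of the cycling barcodes was shared between libraries. Each pair shared 21 to 70 of all listed barcodes, only 0.686% to 1.31% of the smaller library. Among 19 to 51 cycling cells per library, the lack of a shared barcode therefore tells little. A simulated-doublet score marked 3 of the 35 pancreas control cells and none of the others.

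CD8 T cells were over-represented among cycling cells of the pancreas and not detectably so in the lymph node. A cell with UMIs of Cd8a or Cd8b1 but not of Cd4 was called CD8, and one with Cd4 UMIs alone CD4. In pancreas control 16 cycling cells were CD8, 11 were CD4, 5 held both and 3 neither. In pancreas CD4-Cre 14 were CD8, 21 CD4, 9 both and 7 neither. CD8 cells were thus 59.3% of the called cycling cells and 32.5% of the called other T cells in pancreas control, a difference of 26.7 points (8.0 to 43.1). In pancreas CD4-Cre they were 40% against 24.7%, a difference of 15.3 points (0.797 to 31.8). In the lymph node 5 cycling control cells were CD8 and 12 CD4, and 7 and 10 in CD4-Cre. These shares of 29.4% and 41.2% stood beside 36.4% and 36.3% among other T cells, with differences of -7.03 points (-23.3 to 16.8) and 4.88 points (-14.7 to 27.7).

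Deep barcodes show both genes more often, so the calls were repeated at equal depth. After thinning to 2000 UMIs the CD8 share was 85.7% of 21 called cycling cells against 39.0% of other T cells in pancreas control. It was 66.7% of 24 against 30.9% in pancreas CD4-Cre. The lymph node shares were 44.4% of 9 against 45.7% (control) and 41.7% of 12 against 44.1% (CD4-Cre). Over 20 draws of the thinning the medians for cycling cells were 83.8%, 63.0%, 45.5% and 56.9%, with ranges of 63.2% to 100% and 55.2% to 72.7% in the pancreas and 36.4% to 83.3% and 41.7% to 87.5% in the lymph node. In the pancreas even the lowest draw lay above the share of the other T cells, though the draws reuse the same cells. Thinning removed more CD4 than CD8 calls. Cycling pancreas control cells went from 11 CD4, 16 CD8 and 3 neither to 3, 18 and 14. Other T cells of that library went from 881 CD4 and 425 CD8 to 587 and 376. Thinned cycling cells of pancreas CD4-Cre were 8 CD4, 16 CD8 and 23 neither. The part of lost Cd4 UMIs in the thinned shares was not tested. Few B cells held such UMIs, which measures the background from free RNA: 4 of 899 and 5 of 1320 pancreatic B cells had a Cd8 UMI and 1 and 7 a Cd4 UMI, at median depths of 3562 and 3430 UMIs. With all cycling cells counted, the genotypes were not separable by this measure. The CD8 share of cycling pancreas cells differed, CD4-Cre minus control, by -19.0 points thinned (-41.1 to 6.45) and by -19.3 points unthinned (-41.0 to 5.51). In the lymph node the difference was -2.78 points thinned (-39.3 to 34.0) and 11.8 points unthinned (-19.0 to 39.7). Without barcodes of other cell types, the unthinned pancreas shares were 72.7% of 22 and 38.2% of 34, and the difference was -34.5 points (-54.6 to -7.74). Thinned, it kept the -19.0 points, with an interval that includes 0.

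**Figure D2:**
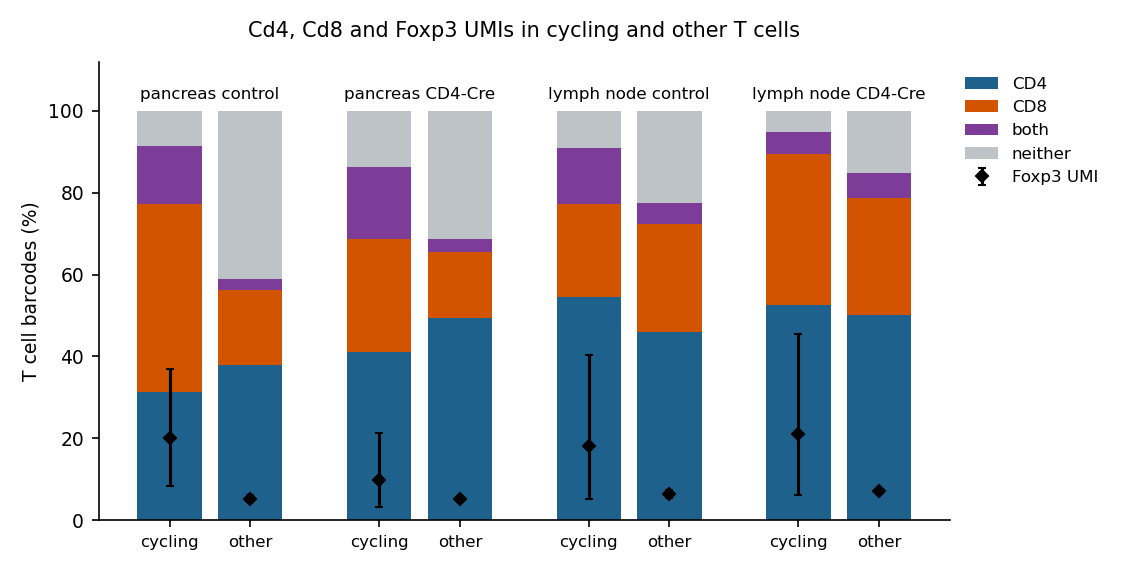
Stacked shares (vertical axis, percent of T cell barcodes, unthinned) of cells with Cd4 UMIs only, Cd8 UMIs only, both or neither, for cycling and other T cells of each library; diamonds give the share with a Foxp3 UMI with its exact 95% interval. In the pancreas the CD8 block is taller in cycling than in other cells. Unthinned, a smaller share of the deeper cycling cells lacks both genes in all 4 libraries (8.57% against 41.1% in pancreas control). Thinned, this share was lower only in pancreas control (40%, interval 23.9 to 57.9, against 53.0%). It was 46.9% against 46.3% in pancreas CD4-Cre. In the lymph node it was 52.6% against 41.0% (control) and 33.3% against 32.8% (CD4-Cre).

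The same data can be read as the chance that a cell of each kind cycled. Cycling cells are deeper and are called more often than others, so the unthinned shares depend on depth. In pancreas control 16 of 441 CD8 cells (3.63%, 2.09 to 5.83) and 11 of 892 CD4 cells (1.23%, 0.617 to 2.20) were cycling. In pancreas CD4-Cre the shares were 14 of 682 (2.05%, 1.13 to 3.42) and 21 of 2062 (1.02%, 0.631 to 1.55). In lymph node control they were 5 of 731 (0.684%) and 12 of 1278 (0.939%), and in lymph node CD4-Cre 7 of 1587 (0.441%) and 10 of 2783 (0.359%). Among CD4 cells of the lymph node the difference between genotypes was -0.580 points (-1.29 to -0.0783). Thinned, it was -0.235 points (-1.05 to 0.274), which includes 0. The thinned shares of CD8 and CD4 cells were 4.57% and 0.508% in pancreas control and 2.51% and 0.573% in pancreas CD4-Cre. In the lymph node they were 0.564% and 0.594% for control and 0.324% and 0.359% for CD4-Cre.

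Foxp3, the factor that defines regulatory T cells, was detected in 7 of 35, 5 of 51, 4 of 22 and 4 of 19 cycling cells, control before CD4-Cre and pancreas before lymph node. These shares of 20%, 9.80%, 18.2% and 21.1% stood above the 5.13% to 7.02% of other T cells, at greater depth. Thinned, they were 11.4%, 4.08%, 10.5% and 5.56%, against 3.86%, 3.40%, 4.51% and 4.66%, and across 20 draws the number of cycling cells with a Foxp3 UMI ran from 1 to 5, 0 to 2, 1 to 3 and 0 to 3. A Foxp3 UMI was held by 1 of 899 and 0 of 1320 pancreatic B cells, the latter allowing a share of up to 0.279%. Foxp3 stood at 50.4 CPM in cycling and 37.4 in other cells of pancreas control and 32.5 and 29.2 in pancreas CD4-Cre. The lymph node values were 58.3 and 36.0 for control and 33.7 and 33.6 for CD4-Cre. The interval of each cycling value held the value of the other T cells except in lymph node control (36.9 to 87.4), where 15 of the 23 UMIs came from 1 cell. In pancreas CD4-Cre 18 of the 26 UMIs came from 1 cell, which also held 18 Cd4 and 20 Cd8 UMIs. Of the 7 pancreas control cells with Foxp3, 4 held markers of other cell types, and 3 of 27 cells (11.1%) remained without them. No difference between genotypes in the Foxp3 share exceeded counting error, at -7.35 points (-22.2 to 4.50) in the pancreas and -4.97 (-26.3 to 16.6) in the lymph node after thinning. Of cells with a Foxp3 UMI, 7 of 128 (5.47%) and 5 of 217 (2.30%) cycled in the pancreas and 4 of 179 (2.23%) and 4 of 393 (1.02%) in the lymph node.

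The cycling cells of the lymph node differed in phase between genotypes, while those of the pancreas as a whole did not detectably. Phase was read from 44 S and 50 G2/M list genes, leaving out the 6 rule genes. Since Mki67, Top2a, Ube2c and Birc5 are themselves G2/M genes, the rule is not neutral to phase, and the same rule served all libraries. G2/M UMIs were 64.5% of the cycle UMIs in pancreas control (4769 against 2622 S UMIs) and 65.4% in pancreas CD4-Cre (7422 against 3924). The difference was 0.891 points (-0.505 to 2.29). It was -2.89 points (-5.51 to -0.250) among CD4 cells and 1.69 (-0.430 to 3.81) among CD8 cells. The lymph node shares were 63.0% for control (3243 against 1908) and 42.0% for CD4-Cre (1495 against 2066), a difference of -21.0 points (-23.1 to -18.9). UMIs of 1 cell are not independent, so cells were counted as well. More S than G2/M UMIs were held by 13 of 35 and 16 of 51 pancreas cells (37.1% and 31.4%), by 6 of 22 lymph node control cells (27.3%) and by 13 of 19 lymph node CD4-Cre cells (68.4%). Between the lymph node libraries the difference was 41.1 points (10.5 to 62.7). Among pancreas CD4 cells, more S UMIs were held by 5 of 11 in control and 9 of 21 in CD4-Cre. These shares were 45.5% and 42.9% (16.7% to 76.6% and 21.8% to 66.0%), so the difference of -2.89 points in UMIs was not seen by cells.

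The share of G2/M UMIs per cell ranged widely. It ran from 25.7% to 94.1% with a median of 65.4% in pancreas control and from 24.8% to 100% with a median of 59.6% in pancreas CD4-Cre. Lymph node control cells ran from 25.0% to 100% with a median of 67.9%, and lymph node CD4-Cre cells from 17.6% to 93.3% with a median of 34.6%. Between 40% and 60%, near the equal split, lay 7, 18, 6 and 3 cells. The cell with the most cycle UMIs was in lymph node control, with 346 S and 721 G2/M UMIs, and without the top cell of each library the lymph node difference was -21.5 points (-23.8 to -19.2). It was -16.0 points (-18.5 to -13.3) among CD4 cells (12 and 10) and -27.4 points (-31.3 to -23.3) among CD8 cells (5 and 7). These intervals count UMIs, not cells. More S than G2/M UMIs were held by 5 of 12 and 6 of 10 CD4 cells (intervals 15.2% to 72.3% and 26.2% to 87.8%). Among CD8 cells they were held by 1 of 5 and 6 of 7 (0.505% to 71.6% and 42.1% to 99.6%). The shares with more S UMIs were thus 41.7% and 60% for CD4 cells and 20% and 85.7% for CD8 cells. In each subset the intervals of the genotypes overlap. No interval of these differences in cells was computed, and overlap alone does not show that the shares are alike. The lymph node difference in UMIs grew to -28.6 points (-36.4 to -20.6) when the 2% of barcodes with the most UMIs were left out, which left 6 and 4 cycling cells.

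As a share of all lymph node T cells, cells with at least as many G2/M as S UMIs were 16 of 2777 (0.576%) in control and 6 of 5557 (0.108%) in CD4-Cre. CD4-Cre minus control was -0.468 points (-0.831 to -0.213). Cells with more S UMIs were 6 of 2777 (0.216%) and 13 of 5557 (0.234%), a difference of 0.018 points (-0.255 to 0.221). The shares thus lay apart for cells of G2/M lean and near each other for cells of S lean. In the pancreas the shares with G2/M lean were 0.935% and 0.836%, and those with S lean 0.552% and 0.382%, with both intervals of the difference including 0.

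**Figure D3:**
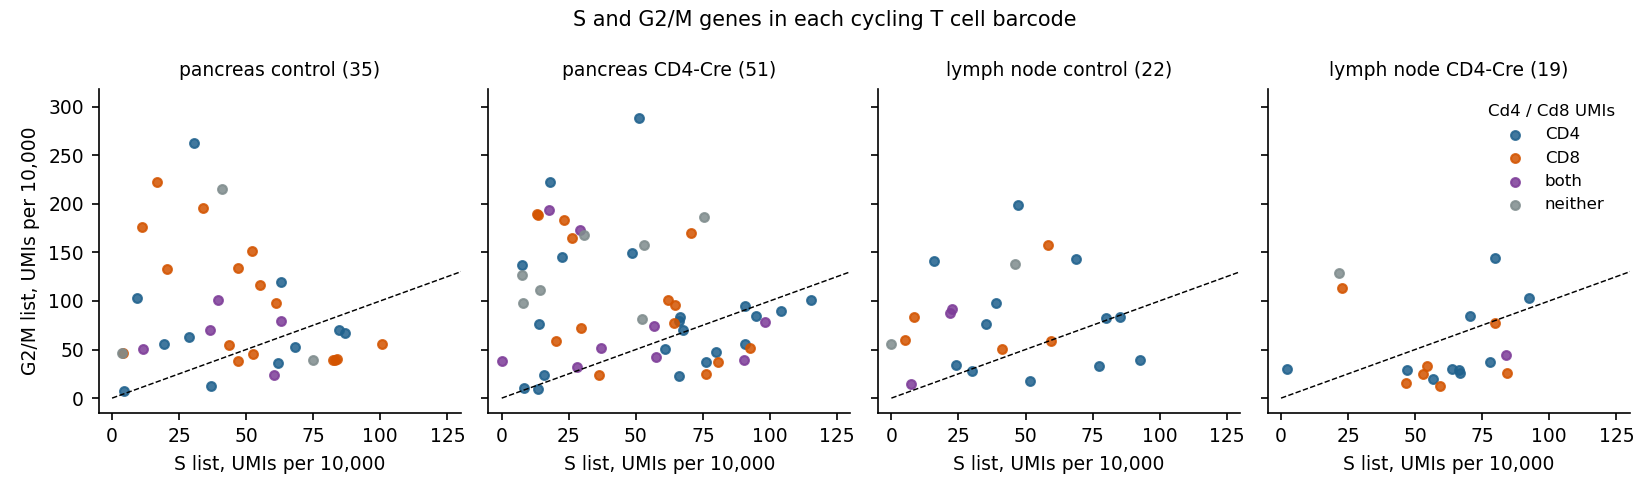
Each point is 1 cycling T cell, placed by its UMIs of the S list (horizontal axis) and of the G2/M list (vertical axis) per 10000 UMIs, in the 4 libraries and coloured by Cd4 and Cd8 UMIs; the dashed line marks equal levels. In lymph node CD4-Cre 13 of 19 cells lie below the line, against 6 of 22 in lymph node control.

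Gene by gene, the G2/M list was lower and the S list higher in lymph node CD4-Cre than in lymph node control. A gene was compared when it had at least 20 UMIs over the 2 libraries, and the log2 ratio is of CPM, CD4-Cre over control. Of the 50 G2/M genes 36 were compared, 34 were lower, and 15 were at least 2-fold lower (7.16% of all 4109 genes compared were at least 2-fold lower), with a median of -0.96 where all genes had -0.10. Cenpa, the histone of centromeres, stood at 362 CPM in control and 36.8 in CD4-Cre (log2 -3.30, -4.29 to -2.45). Ccnb2, a mitotic cyclin, stood at 299 and 52.1 CPM (-2.52, -3.35 to -1.78). Cdc20, an activator of the anaphase-promoting complex, stood at 119 and 27.6 CPM (-2.11, -3.32 to -1.06). Of the most abundant genes of the list, Hmgb2, a chromatin protein, stood at 2594 and 1603 CPM (-0.69, -0.85 to -0.54). Tubb4b, a tubulin of the spindle, stood at 502 and 254 CPM (-0.98, -1.37 to -0.60). Jpt1 stood at 443 and 362 CPM (-0.29, -0.64 to 0.05) and the condensin gene Smc4 at 426 and 398 CPM (-0.10, -0.44 to 0.24), both with intervals that include 0. The exceptions above 0 were Nuf2 (0.15) and Cbx5 (1.17, 0.18 to 2.22), a heterochromatin protein. Of the 44 S genes 39 were compared and 33 were higher, 2 of them at least 2-fold (as were 2.46% of all genes), with a median of 0.37. Pcna, the sliding clamp of the replication fork, stood at 261 and 408 CPM (0.64, 0.26 to 1.03). Slbp, which binds histone mRNA, stood at 388 and 549 CPM (0.50, 0.18 to 0.82). Mcm5 and Mcm6 are subunits of the replicative helicase. Mcm5 stood at 198 and 368 CPM (0.90, 0.47 to 1.33) and Mcm6 at 322 and 401 CPM (0.32, -0.04 to 0.68). Dscc1, which helps load the clamp, had the largest ratio (1.44, 0.41 to 2.56), on 12 and 27 UMIs.

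In the pancreas the same genes stood near each other in the genotypes. The 42 S genes compared had a median of 0.07 and the 48 G2/M genes 0.17, with all genes at -0.01. In the G2/M list 3 genes were at least 2-fold higher, of which only Hmmr had an interval that excluded 0 (1.11, 0.40 to 1.88). In the S list 2 were at least 2-fold higher, and in neither list was a gene at least 2-fold lower. Of all 6544 genes 2.77% were at least 2-fold higher and 4.00% at least 2-fold lower. Cenpa stood at 268 and 364 CPM (0.44, 0.16 to 0.73) and Ccnb2 at 170 and 244 (0.52, 0.16 to 0.88), the opposite side from the lymph node. Pcna stood at 292 and 264 CPM (-0.15, -0.45 to 0.16). Without barcodes of other cell types the summed lists were even, at -0.01 for each. Ccnb1, the other mitotic cyclin, was outside both lists and stood at 74.8 and 111 CPM in the pancreas and at 93.7 and 6.13 CPM in the lymph node, the last from 2 UMIs (log2 -3.93, -7.03 to -1.98).

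**Figure D4:**
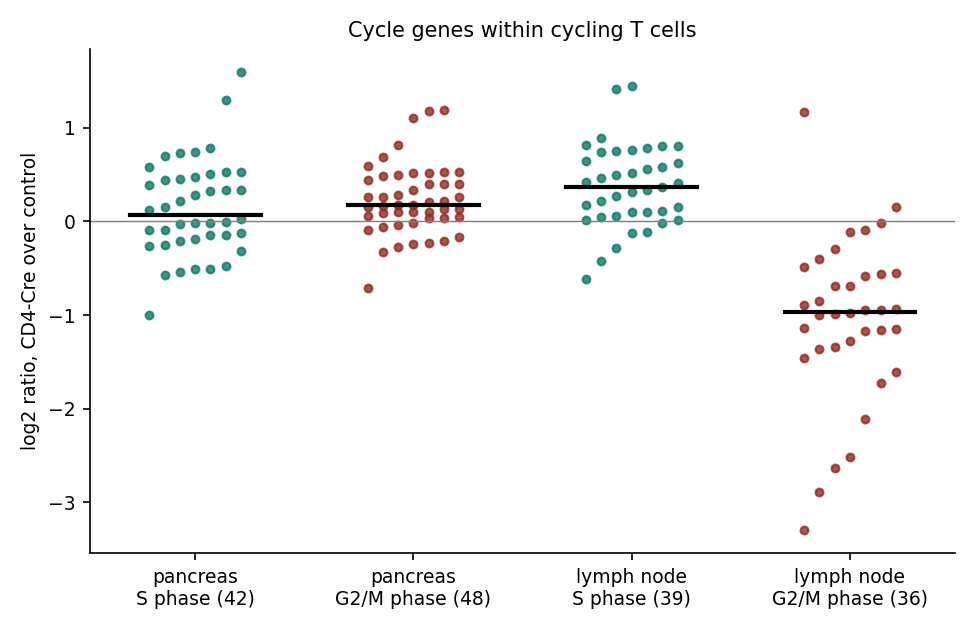
Log2 ratio of CPM, CD4-Cre over control, within cycling T cells (vertical axis) for the genes of the S and G2/M lists with at least 20 UMIs in the tissue's 2 libraries; each point is a gene, bars are medians, and the rule genes are left out. The lymph node G2/M genes have a median of -0.96, the other 3 columns medians of 0.07, 0.17 and 0.37.

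Against other T cells of their own library, cycling cells held more of the growth and glycolysis genes and less of the naive genes in all 4 libraries. All genes compared had medians of -0.03, -0.09, -0.16 and -0.22 in this contrast. Summed over 25 genes of growth and glycolysis, the log2 ratio was 0.94 and 0.88 in the pancreas (control, then CD4-Cre) and 0.77 and 0.89 in the lymph node. Values below keep this order of the 4 libraries. In those libraries 10, 8, 6 and 7 of the 24 genes measured were at least 2-fold higher, where 11.9%, 11.5%, 10.6% and 12.7% of all genes were. Gapdh, a glycolytic enzyme, stood at 2073, 1812, 3065 and 2157 CPM in cycling cells and 668, 563, 967 and 639 CPM in others. Ran, the GTPase of nuclear transport and spindle assembly, stood at 1256, 1331, 1467 and 1312 CPM against 330, 364, 437 and 423. Npm1, a nucleolar protein of ribosome assembly, differed little in the pancreas, with log2 ratios of 0.12 and 0.07 there and of 0.29 and 0.74 in the lymph node.

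The 13 naive genes were all lower in cycling cells of every library, with summed log2 ratios of -2.03, -1.81, -1.31 and -1.78. At least 2-fold lower were 12, 12, 8 and 11 of them, where 15.8%, 17.5%, 22.1% and 27.5% of all genes were. Klf2, the factor that maintains quiescence and exit receptors, stood at 329, 481, 441 and 227 CPM against 974, 1109, 912 and 813 in others. Ccr7, the receptor that guides T cells into lymph nodes, stood at 29.6, 41.3, 324 and 291 CPM against 298, 353, 624 and 599. Lef1, a factor of naive cells, stood at 73.1, 63.8, 220 and 156 CPM against 457, 450, 815 and 680. Within CD4 cells alone and within CD8 cells alone, with barcodes of other cell types left out, the growth list was higher (0.69 to 1.18) and the naive list lower (-0.50 to -2.25) in each of the 4 libraries. The smallest naive difference was in the 5 CD8 cells of lymph node control.

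Lists of activation, effector and inhibitory genes differed among the libraries and between CD4 and CD8 cells. Activation genes summed to log2 ratios of 0.27 (0.16 to 0.37) and 0.17 (0.08 to 0.26) in the pancreas and -0.02 (-0.18 to 0.14) and -0.04 (-0.24 to 0.15) in the lymph node. Inhibitory receptors were higher in cycling cells of the pancreas, with summed log2 ratios of 1.01 and 1.21, and in lymph node CD4-Cre (1.11, 0.80 to 1.40). In lymph node control the ratio was 0.18 (-0.20 to 0.54). With barcodes of other cell types left out, the inhibitory list was at -0.19 (-0.41 to 0.03) within the 16 cycling CD8 cells of pancreas control, against 1.65 (1.39 to 1.90) within the 6 CD4 cells. In pancreas CD4-Cre it was at 0.93 within CD8 and 0.84 within CD4 cells. Tigit stood at 271 and 299 CPM in cycling pancreas cells against 125 and 116 in others, and at 7.60 and 24.5 CPM in cycling lymph node cells against 8.29 and 11.2. Pdcd1, the gene of PD-1, stood at 169, 203, 38.0 and 82.7 CPM against 74.4, 73.6, 31.05 and 25.1. Effector genes summed to 0.01 and 0.37 in the pancreas and to -0.59 and 0.57 in the lymph node. Of the 457 effector UMIs in lymph node CD4-Cre, 194 were Ccl5 UMIs of 1 cell, and without Ccl5, a choice made after seeing the data, that ratio was -0.04 (-0.22 to 0.14). The other 3 were then 0.51, 0.57 and -0.44. Within CD8 cells alone the whole list was at -0.57 and -0.13 in the pancreas. Gzmk, a granzyme, stood at 311 and 318 CPM in cycling pancreas cells against 88.2 and 68.7 in others. Gzma stood at 1245 and 851 CPM against 825 and 514. Its highest counts in pancreas CD4-Cre were 228, 176 and 105 UMIs, each in a barcode with Ncr1. In pancreas control the highest were 267 and 228 UMIs, each in a CD8 cell. The Gzma level without these barcodes was not computed. Batf, a factor of activated T cells, stood at 261 and 217 CPM against 101 and 102 in the pancreas and at 93.7 and 64.4 against 63.9 and 52.5 in the lymph node. Genes of the dissociation stress list were lower in cycling cells of all libraries, with summed log2 ratios of -0.26, -0.28, -0.36 and -0.47.

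**Figure D5:**
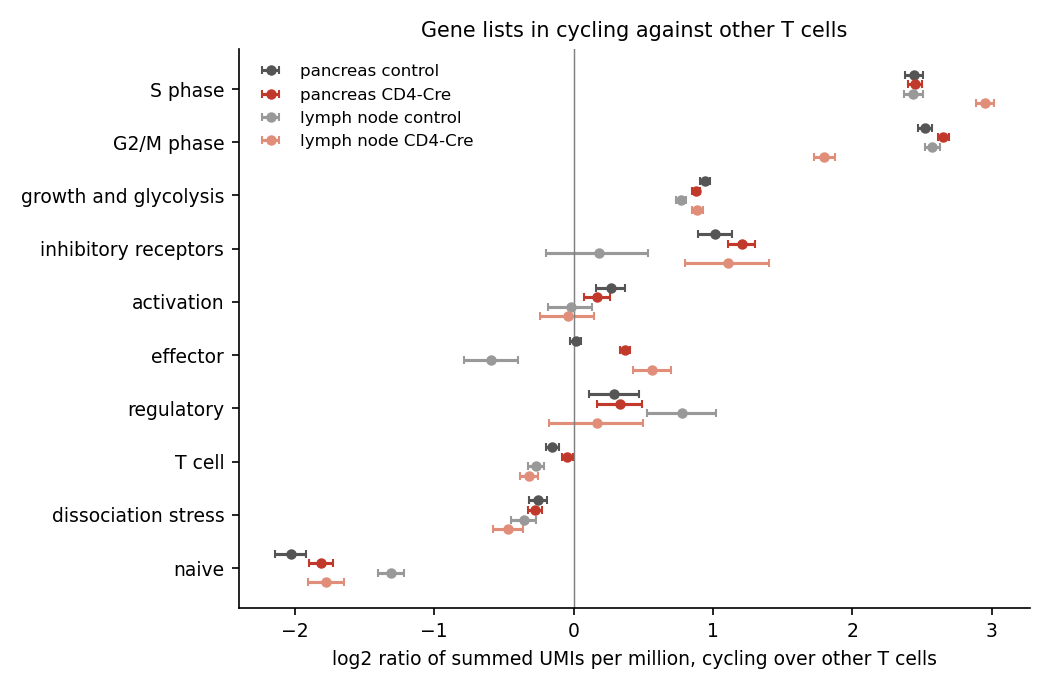
Log2 ratio of summed CPM, cycling over other T cells of the same library (horizontal axis), for 10 gene lists (rows) in the 4 libraries (colours); bars are 95% intervals for counting error. The growth list lies at 0.77 to 0.94 and the naive list at -2.03 to -1.31; the S and G2/M lists are positive by the choice of the cells.

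Across single genes, the 10 with the highest mean ratio over other T cells were Esco2, Mxd3, Hist1h1b, Ncapg, Spc24, Knl1, Mybl2, Tk1, Hist1h2ap and Ska1. They code for cohesion, histone, condensin, kinetochore and nucleotide synthesis proteins and for regulators of the cycle. Hist1h1b, a linker histone made in S phase, stood at 150, 265, 284 and 310 CPM in cycling cells and at 0.556, 0.722, 0.582 and 0.301 CPM in others. Tk1, thymidine kinase, stood at 209, 210, 271 and 199 CPM against 1.89, 2.47, 1.82 and 0.677. The 10 lowest were Pdlim4, Tnfrsf25, Tcp11l2, Vipr1, Igfbp4, St8sia6, Il6ra, Pik3ip1, Kdm5b and Tdrp. Igfbp4 stood at 26.1, 16.3, 165 and 135 CPM in cycling cells and at 254, 327, 822 and 905 CPM in others. Il6ra, the receptor chain for interleukin 6, stood at 19.1, 11.3, 17.7 and 12.3 CPM against 105, 119, 136 and 119. Pik3ip1, an inhibitor of PI3 kinase, stood at 8.70, 3.76, 12.7 and 15.3 CPM against 39.95, 55.9, 116 and 95.8.

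Between genotypes, Id3 was among the 5 genes with the largest excess in CD4-Cre in both tissues. Id3, an inhibitor of E proteins, had 6 UMIs in 4 of 35 pancreas control cells and 68 in 14 of 51 CD4-Cre cells (10.4 and 85.1 CPM, log2 3.03, 1.83 to 4.52), with 21 in the highest cell. Lymph node cells had 37 UMIs in 13 of 22 and 69 in 11 of 19 cells (93.7 and 211 CPM, 1.17, 0.58 to 1.79), with 29 in 1 cell. In other T cells its ratios were 0.38 (0.17 to 0.59) and 0.10 (-0.00029 to 0.19). Nrn1, a neuritin also made by some T cells, had 6 UMIs in 4 pancreas control cells and 64 in 8 CD4-Cre cells (2.94, 1.74 to 4.44). Hist1h2ak had 10 and 52 UMIs (1.90, 0.91 to 3.05), and belongs to a family of near-identical histone genes whose reads may be shared. Cd24a and Car2 were higher too (1.70 and 1.68), but not without barcodes of other cell types (0.20, -1.37 to 1.91, and -0.85, -2.42 to 0.70). The 5 lowest in pancreas CD4-Cre were Cxcl9, Cxcl16, Cst3, H2-Ab1 and H2-Eb1, all genes of antigen-presenting cells. Cxcl9 had 105 UMIs in 3 control cells and 8 in 1 CD4-Cre cell, and none in either without barcodes of other cell types. Cst3 then stood at -0.15 (-0.52 to 0.23), where it was -2.96 with them.

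The 5 lowest in lymph node CD4-Cre were Pttg1, Cdc25b, Cd74, S100a6 and S1pr4. Pttg1, the gene of securin, which holds sister chromatids together until anaphase, had 97 UMIs in 15 of 22 control cells and 7 in 4 of 19 CD4-Cre cells (246 and 21.5 CPM, log2 -3.52, -4.87 to -2.42). Cdc25b, a phosphatase that starts mitosis, had 55 UMIs in 10 cells and 5 in 4 (-3.18, -4.86 to -1.88). Both belong with the G2/M genes by their known roles, though not in the list, and 25 and 31 of the control UMIs came from 1 cell each. Cd74 lost its difference without the 1 barcode of antigen-presenting markers (-0.83, -2.26 to 0.48). S100a6 had 189 UMIs in 7 control cells and 35 in 2 CD4-Cre cells. Higher in CD4-Cre besides Id3 were Ccl5, Sh2d2a, Sdf2l1 and Ptges3. Ccl5, an effector chemokine, had 195 UMIs in CD4-Cre against 6 in control, and 194 of them came from 1 cell. The effector list was 1.27 higher as a sum and, without Ccl5, 0.51 higher (0.24 to 0.77). Of its 21 genes 9 were compared and 8 were higher, 4 of them at least 2-fold, as were 2.46% of all 4109 genes compared.

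The receptor V segments showed repeats among cycling cells of the pancreas and none in the lymph node. Each cell was given the Trbv and the Trav segment with the most UMIs, and a shared pair of segments does not show a shared clone. In pancreas control 34 cells had both, and Trbv13-3 with Trav16d-dv11 occurred in 5 of them (14.7%, 4.95 to 31.1), 4 called CD8 and none CD4. The pair occurred in 36 of 1594 other T cells (2.26%, 1.59 to 3.11). Trbv29 with Trav13n-4 occurred in 3 cells. In pancreas CD4-Cre 39 cells had both, 17 of them in 7 repeated pairs. Trbv15 with Trav6-1 occurred in 4 (10.3%, 2.87 to 24.2), 3 called CD8, against 7 of 2940 other T cells (0.238%). Trbv15 was the leading segment of 11 of 42 CD4-Cre cells with a Trbv (26.2%, 13.9 to 42.0) against 7.87% of other T cells. All 22 pairs of lymph node control cells and all 17 of CD4-Cre cells were different. These pairs were named because they repeated, so their excess is a description.

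Pou2af1 itself was too scarce to check the deletion in cycling cells. Pancreas control and lymph node CD4-Cre cells had 0 UMIs, and the other libraries 1 each. With 0 UMIs, the upper end of the interval was 6.42 CPM in pancreas control and 11.3 CPM in lymph node CD4-Cre. Other T cells stood at 5.45 CPM in control and 0.602 in CD4-Cre pancreas and at 4.65 and 0.150 CPM in the lymph node. Both upper ends thus lay above the level of the other T cells of the same library. Pancreatic B cells held 219 and 241 CPM. Pou2f2, which encodes Oct2, stood at 36.5 and 82.6 CPM in cycling pancreas cells (log2 1.18, 0.45 to 1.96) and at 78.5 and 70.5 CPM in the lymph node (-0.16, -1.001 to 0.67).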

How the data were processed

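The authors deposited raw UMI counts for each gene in each cell barcode. Per the submitters' processing notes, Cell Ranger and mm10 were used, and per the file headers the matrices carry software version 3.0.0. The steps and the annotation are not given in the sources used here. Libraries listed 3059 to 6963 barcodes with 14851217 to 32798133 UMIs, and all values of the 31053 listed genes were used. From the counts, CPM, shares (exact Clopper-Pearson intervals), differences of shares (Newcombe intervals), Poisson intervals and exact conditional intervals of log2 ratios were computed with Python 3.11.15 and scipy 1.17.1. The log2 ratio intervals were tested on simulated independent counts, and the Newcombe interval on a known example. The simulation does not cover UMIs that share a cell. Thinned values leave out 0 to 3 cycling cells and 70 to 317 other T cells per library with under 2000 UMIs. Doublets were scored after the Scrublet method as an alternative only. TMM (edgeR 4.0.16) and DESeq2 1.42.0 size factors served only as other library sizes. Genes were named by rule: the 5 highest and 5 lowest genotype ratios per tissue (50 or more UMIs in one of the libraries, interval excluding 0), the 10 highest and lowest mean ratios of cycling over other T cells, the 3 leading segments per chain and library, and up to 6 abundant members of a list. Cenpa, Ccnb2, Cdc20, Hmmr, Nuf2, Cbx5, Dscc1 and the repeated V pairs were named after their values were seen. The cells and the gene lists were chosen with earlier results of these data known. Promoters came from a RefSeq table of GRCm38.p6, matched by gene symbol, and no coordinate of the deposited files was used.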

Additional observations from a re-analysis of the deposited data

Results flagged for a closer look

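With 1 library per group no group had enough samples for a check of single samples. Within cycling T cells, 3 gene lists moved in opposite directions in the 2 tissues, CD4-Cre over control, with counting intervals that exclude 0 on each side. The difference between tissues was not tested, and tissue, age and cell selection cannot be told apart. The summed G2/M list had a log2 ratio of 0.16 (0.11 to 0.22) in the pancreas and -0.84 (-0.93 to -0.75) in the lymph node. The pancreas value was -0.012 without barcodes of other cell types. The naive list, led by Klf2 and Ets1, had 0.35 (0.21 to 0.49) and -0.59 (-0.75 to -0.43), and its pancreas value was -0.075 without the 2% of barcodes with the most UMIs. The effector list, led by Ccl5, had -0.25 (-0.30 to -0.20) and 1.27 (1.04 to 1.51), and its pancreas value was 0.073 at a threshold of 2 UMIs. Of the lymph node CD4-Cre effector UMIs, 194 were Ccl5 UMIs of 1 cell, and without Ccl5 the values were -0.35 and 0.51.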

How the results depend on the processing

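No paired analysis was possible because each group is 1 library and the labels give no replicate numbers. Cells could not be left out by replicate for the same reason. For 12 results (cycling, CD8, Foxp3 and G2/M shares and the summed S and G2/M lists, each in 2 tissues) 156 alternative values were computed: 136 lay within the counting interval of the main value and 20 outside it. Of the 156 values, 12 did not keep the sign of the main value, 10 of them for differences whose main interval includes 0. The alternatives that leave out barcodes of other cell types, the cell with the most cycle UMIs or Ccl5 were chosen after seeing the data. Without barcodes of other cell types, the pancreas list ratios changed sign, to -0.0078 for the S list (0.11 with them) and -0.012 for the G2/M list (0.16). The stricter T cell gate gave 0.022 for the pancreas S list, 0.060 for the pancreas G2/M list, -0.64 for the lymph node G2/M list and -18.4 points for the lymph node G2/M share. Thinning the rule gave 0.24 for the pancreas G2/M list. Leaving out the 2% of barcodes with the most UMIs gave 0.11 for that list, 1.20 for the lymph node S list and -28.6 points for the lymph node G2/M share. TMM gave 0.22 for the pancreas G2/M list, 0.49 for the lymph node S list and -0.75 for the lymph node G2/M list, and DESeq2 gave 0.22 for the pancreas G2/M list. A threshold of 2 UMIs gave 0.21 for the lymph node S list and -17.4 points for the lymph node G2/M share. Equal weight for each cell gave 0.51 and -0.60 for the lymph node S and G2/M lists. The pancreas G2/M share difference (0.89 points) was -0.83 points without the top cell, -0.14 without the deepest 2% and -0.074 without other cell types. The pancreas Foxp3 share difference (-7.35 points) was 1.06 with the stricter gate. The other 6 of the 10 were CD8 and Foxp3 share differences of the lymph node. Thinning to 1000 UMIs gave -45.8 points for the lymph node CD8 share. Among the other lists, 16 of 277 values had another sign, all for CD4-Cre over control. Where the main interval excluded 0, these were the pancreas naive list without the deepest 2% (-0.075), the pancreas effector list at a threshold of 2 UMIs (0.073), the pancreas growth list with the thinned rule (-0.14) or without other cell types (-0.0074), the lymph node activation list with equal weights (0.089) and the lymph node inhibitory receptor list without the deepest 2% (-2.17). Where it included 0, they were the pancreas activation (0.019) and regulatory (0.26) lists without other cell types, the latter also with the stricter gate (0.0043), the pancreas inhibitory receptor list with equal weights (-0.083), and the lymph node growth list (0.0016) under 6 alternatives (-0.35 to -0.0091). The lymph node G2/M list stayed negative and the G2/M share lower in every alternative run. The causes were not tested. The small number of cycling cells, 19 to 51 per library, limits shares within them to wide intervals.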

Other observations

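Insulin and other islet transcripts were found in a few cycling pancreas T cells. At least 20 UMIs of the islet genes Ins1, Ins2, Iapp and Gcg occurred in 3 of 51 cycling pancreas CD4-Cre cells and in 1 of 4135 other T cells of that library. In pancreas control none of 35 cycling cells and 1 of 2318 other T cells reached this number. Summed, the islet genes stood at 53.9 and 202 CPM in cycling cells and at 7.34 and 6.38 CPM in other T cells, and 1 CD4-Cre cell held 103 of the 161 UMIs of its library's cycling cells. The part of free RNA or of joined cells in this was not tested. Exocrine genes stood lower in cycling cells of that library, at 61.3 CPM in cycling cells and 655 CPM in other T cells.

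Genes of gamma-delta T cells were detected in cycling cells of the pancreas at 116.5 and 115 CPM, against 166 and 102.9 CPM in other T cells. All 4 control and 6 CD4-Cre cycling pancreas cells with a Trdc UMI also held Ncr1 UMIs, and 3 of the CD4-Cre ones held no Trac or Trbc UMI. Barcodes with Ncr1 held 29 of the 67 and 28 of the 92 gamma-delta UMIs, and the other cycling cells stood at 75.3 and 88.3 CPM. In the lymph node all 5 of these genes were at 0 in cycling cells.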
